A study of Mus musculus with 12 samples.

Results

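The comparison described here asks what macrophage migration inhibitory factor (MIF) adds to cardiac myofibroblasts that also receive soluble CD74 (sCD74), the shed extracellular portion of a MIF receptor. It sets the 3 arrays of cells given 40 nM sCD74 together with 8 nM MIF against the 3 arrays of cells given 40 nM sCD74 without MIF, which are 6 of the study's 12 arrays. It covers every probe set that is not a control, 22206 of the 28846 in the table. Arrays were taken as pairs by the code that their titles share, which also gives them the same replicate number, so that each co-treated array has an sCD74 array of its own.

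All 12 arrays carry total RNA of fibroblasts from the hearts of wildtype C57BL/6J mice aged 1 to 7 days. Per the labels' protocols, the cells had been kept in culture for 10 to 14 days, had become myofibroblasts, and were exposed for 8 h. The other 6 arrays are of cells given 8 nM MIF with no sCD74 and of cells given carrier, 3 each, and serve here as the same contrast without sCD74. Since sCD74 is in both groups of the comparison, its values say what MIF adds on top of sCD74 and nothing about sCD74 itself. The labels do not say whether a replicate number marks a separate isolation or how many animals gave each culture, so p-values measure the spread between these arrays, which may be technical.

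MIF is a secreted cytokine that binds CD74 on the cell surface, where CD44 serves as the signalling partner, and it also engages the chemokine receptors CXCR2, CXCR4 and ACKR3. In inflammatory signalling, the transcription factor NF-kappaB is held in the cytoplasm by IkappaB proteins. Once released, it drives genes of chemokines, cytokines and adhesion molecules together with genes of its own inhibitors. Myofibroblasts are fibroblasts that contract and lay down matrix in healing and scarred heart tissue.

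The labelled cell type was checked against its markers. Of the fibroblast markers 9 of 9 measured, among them Col1a1, Col1a2 and Dcn, lay above the level of the negative control probe sets, 7.53 on the log2 scale of the deposited values. Macrophage markers did so as well, 15 of 15, and their mean over the list ran from 12.44 to 13.74 in the sCD74 + MIF arrays and from 12.23 to 13.71 in the sCD74 arrays. Of the lymphocyte markers 1 of 7 and of the neutrophil markers 1 of 6 lay above that level. Endothelial markers did so in 10 of 11 and cardiomyocyte markers in 8 of 12. For smooth muscle it was 5 of 9, for epicardial 3 of 7 and for Schwann cell markers 1 of 4. Over all probe sets it was 57.5%. The cardiomyocyte and smooth muscle counts lie near that share, so these counts alone do not show such cells. Endothelial, cardiomyocyte and macrophage levels varied by replicate number. In the sCD74 + MIF arrays of replicates 1, 2 and 3 the endothelial mean was 10.49, 8.98 and 9.32. The cardiomyocyte mean was 9.38, 9.42 and 7.88 there, and the macrophage mean 12.44, 13.74 and 13.21. These are bulk samples, so fewer cells of a type and less RNA per cell cannot be told apart. The median of an array was 8.01 to 8.14, and across probe sets the r between arrays of the same group was 0.988 to 0.994.

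No probe set passed an adjusted p of 0.05 in limma (0 of 22206, 0%), and the smallest adjusted p was 0.612. At an unadjusted p under 0.05, 675 probe sets (3.04%) were higher and 523 (2.36%) were lower with MIF added, against 1110.3 that 5% of all would give. Without sCD74 replicate 3 the higher count was 424, and without both arrays of replicate 3 it was 421. A fit of the 6 arrays alone gave 2 calls, Clec4e (adjusted p = 0.0232) and Ccl2 (adjusted p = 0.0421). That fit leaves only 2 residual degrees of freedom. In the limma fit of all 12 arrays their adjusted p was 0.612 and 0.912. Precision is limited by the few arrays, since differences had a median standard error of 0.142 and a median size of 0.105. The 3 pairs shared little of their differences across all probe sets, with r of 0.05, 0.14 and -0.0625 for pairs 1 and 2, 1 and 3, and 2 and 3, given as a description.

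Differences of at least 2-fold, which is 1 on the log2 scale, were found for 7 probe sets, or 0.0315%, all higher with MIF added, and for 0 lower ones. The 7 genes were Clec4e, Ccl2, Ccl7, Tnf, Acod1, Sele and Tgtp2, all known from inflammatory or interferon responses. Without replicate 2 of the sCD74 + MIF arrays the count was 12, without replicate 2 of the sCD74 arrays 13, without both 16, and without both arrays of replicate 3 it was 12. Values in the table reached 18.39, above what a 16-bit scanner holds on a log2 scale, so a step that rescaled them is possible and a size in folds depends on that scale.

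Clec4e, which codes for the receptor Mincle that senses microbial glycolipids and dead cells, showed the largest difference of any probe set. It had 10.66, 12.04 and 11.83 in the sCD74 + MIF arrays of replicates 1, 2 and 3, against 8.98, 10.61 and 9.91 in the sCD74 arrays. Every co-treated array lay above every sCD74 array, and the pairs differed by 1.68, 1.44 and 1.92. The mean difference was 1.68 ± 0.28 (SE, n = 3 pairs, adjusted p = 0.612), with a range of 1.45 to 1.90 when arrays were left out.

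**Figure D1:**
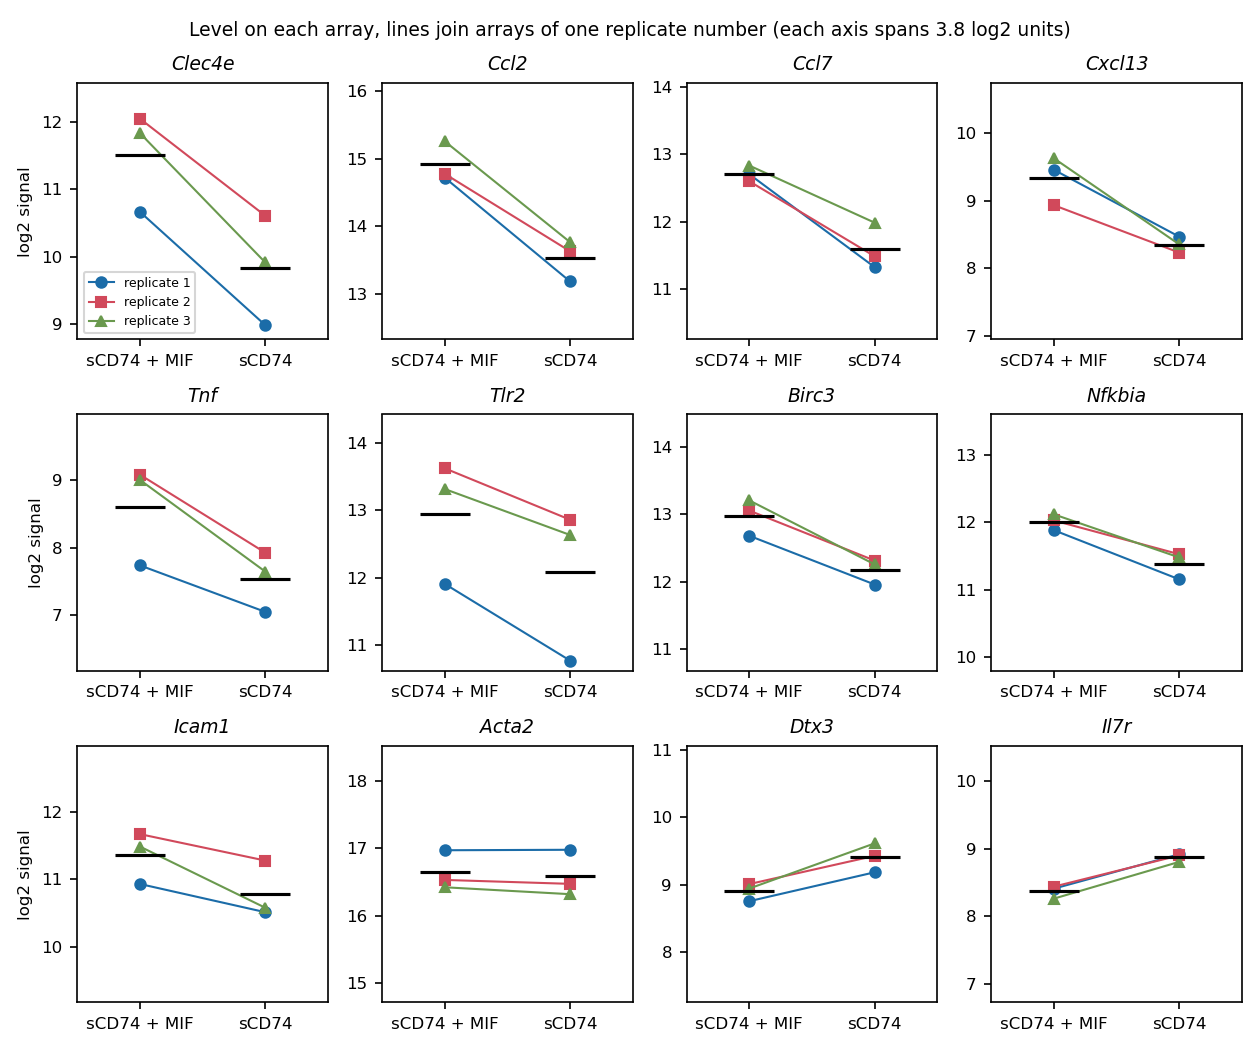
Deposited log2 level (vertical axis) of 12 genes in each sCD74 + MIF array (left) and each sCD74 array (right), with lines joining arrays of the same replicate number and black bars at group means. Every panel spans 3.8 log2 units. Clec4e, Ccl2, Ccl7, Cxcl13 and Birc3 climb towards the co-treated side in all 3 pairs, Acta2 lies level with a difference of 0.05, and Dtx3 and Il7r lie lower with MIF added.

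Genes of the NF-kappaB list were higher with MIF added in nearly every member, in each of the 3 pairs on average. This list and those below were chosen with earlier results of these data known. Their counts beside the shares of all probe sets therefore describe the lists and do not test them. Of 25 measured targets and feedback regulators, 23 were higher with MIF added, against 51% of all probe sets, and 19 were higher in all 3 pairs, against 14.5%. At an unadjusted p under 0.05, 9 were higher, against 3.04% of all probe sets, and 0 were lower. None passed the adjusted p. The list's median difference was 0.30, against 0.00 over all probe sets, and its mean over members was 0.24, 0.31 and 0.46 in pairs 1, 2 and 3. Groups did not overlap for 6 of the 25, against 3.92% of all probe sets.

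Birc3 codes for the ubiquitin ligase cIAP2, which acts downstream of TNF receptors. Its levels were 12.68, 13.06 and 13.21 in the sCD74 + MIF arrays, against 11.96, 12.32 and 12.26 in the sCD74 arrays. All co-treated arrays lay above all sCD74 arrays, and the 3 pairs lay close together at 0.72, 0.74 and 0.95. The difference was 0.80 ± 0.14 (SE, adjusted p = 0.612).

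Nfkbia codes for IkappaB alpha, the inhibitor that holds NF-kappaB in the cytoplasm and is itself an NF-kappaB target. It had 11.88, 12.03 and 12.12 with sCD74 + MIF, against 11.15, 11.53 and 11.48 with sCD74. The groups did not overlap, and the difference was 0.62 ± 0.14 (SE, adjusted p = 0.912). Tnfaip3, the gene of the deubiquitinase A20 that shuts the pathway down, had 10.53, 10.79 and 11.06 with sCD74 + MIF, against 9.88, 10.05 and 10.52 with sCD74. Its lowest co-treated array lay just above its highest sCD74 array, and the difference was 0.64 ± 0.22 (SE, adjusted p = 0.912).

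Icam1, an adhesion molecule for leukocytes, had 10.93, 11.67 and 11.48 in the sCD74 + MIF arrays, against 10.51, 11.28 and 10.58 in the sCD74 arrays. Each pair was higher by 0.39 to 0.91, but the groups overlapped because replicate 2 ran high in both. Sod2, the mitochondrial superoxide dismutase, had 13.97, 14.00 and 14.52 with sCD74 + MIF, against 13.47, 13.82 and 13.59 with sCD74. The 2 groups were apart, with a difference of 0.54 ± 0.18 (SE, adjusted p = 0.912). Smaller values were found for the DNA-binding subunits: Nfkb2 differed by 0.31 ± 0.18, Rel by 0.40 and Relb by 0.08 ± 0.11. The 2 members that were lower were Tnip3, by -0.07, and Plau, by -0.01.

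The promoters of 3 of these genes are shown with the letters that match an NF-kappaB motif, beside those of Birc3 and Clec4e, which hold no match. They are RefSeq sequences of the build GRCm38.p6 from 250 bases before to 50 after the start of the gene, written 5′ to 3′ on the strand of the gene. Capitals mark a match, on either strand, to the NF-kappaB consensus or to GGAANTTCC, and the 2 may overlap. Nfkbia is at chr12:55492598-55492897 on the minus strand, Tlr2, a receptor described with the myeloid genes, at chr3:83841559-83841858 on the minus strand, and Icam1 at chr9:21015690-21015989 on the plus strand. Birc3 is at chr9:7873121-7873420 and Clec4e at chr6:123289822-123290121, both on the minus strand.
Nfkbia: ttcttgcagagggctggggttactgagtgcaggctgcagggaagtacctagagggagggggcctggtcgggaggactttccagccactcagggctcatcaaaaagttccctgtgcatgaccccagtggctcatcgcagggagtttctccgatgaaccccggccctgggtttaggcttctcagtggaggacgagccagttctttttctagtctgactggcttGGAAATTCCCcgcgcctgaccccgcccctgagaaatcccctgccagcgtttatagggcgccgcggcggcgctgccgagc
Tlr2: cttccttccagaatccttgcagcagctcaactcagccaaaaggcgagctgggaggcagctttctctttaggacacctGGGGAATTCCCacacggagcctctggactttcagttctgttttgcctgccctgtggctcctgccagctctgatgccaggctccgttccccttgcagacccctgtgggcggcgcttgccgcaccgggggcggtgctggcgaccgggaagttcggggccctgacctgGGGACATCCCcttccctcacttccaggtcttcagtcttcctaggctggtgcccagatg
Icam1: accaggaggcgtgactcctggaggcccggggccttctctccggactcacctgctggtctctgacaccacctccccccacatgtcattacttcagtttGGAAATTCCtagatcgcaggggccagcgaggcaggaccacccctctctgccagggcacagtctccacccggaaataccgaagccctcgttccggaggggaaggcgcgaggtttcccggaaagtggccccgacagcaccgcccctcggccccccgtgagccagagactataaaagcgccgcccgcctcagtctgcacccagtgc
Birc3: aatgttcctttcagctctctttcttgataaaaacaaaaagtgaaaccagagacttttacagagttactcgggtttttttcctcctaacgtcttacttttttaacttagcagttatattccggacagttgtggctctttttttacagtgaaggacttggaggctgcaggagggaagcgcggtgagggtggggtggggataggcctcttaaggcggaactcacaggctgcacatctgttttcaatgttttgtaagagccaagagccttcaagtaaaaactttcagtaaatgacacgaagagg
Clec4e: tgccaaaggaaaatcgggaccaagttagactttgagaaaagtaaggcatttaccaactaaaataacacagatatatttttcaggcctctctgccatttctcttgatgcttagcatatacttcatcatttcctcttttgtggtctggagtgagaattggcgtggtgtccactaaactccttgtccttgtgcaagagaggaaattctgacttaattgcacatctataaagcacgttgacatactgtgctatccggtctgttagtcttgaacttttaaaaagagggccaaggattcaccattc

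The match of Nfkbia lies 29 to 20 bases before the start, and that of Icam1 153 to 145 bases before it. Tlr2 holds matches 173 to 163 bases before the start and across the start itself. The NF-kappaB consensus was found in 15 of 25 promoters (60.0%) of the NF-kappaB list, of which 20 of 25 genes could be matched to RefSeq, against 8.46% of all 32851 promoters of the table. Since that list was drawn up from known NF-kappaB targets, its share is a description of the list. GGAANTTCC was found in 4 of those 25 promoters, against 0.928% of all. Among the 15 genes named by smallest p on the higher side, 3 of 16 promoters (18.8%) held the consensus, those of Icosl, Nfkbia and Tlr2. On the lower side it was 1 of 12 (8.33%), that of Fxr1. A match names letters only, and no match says only that these letters are not in the window of 300 bases.

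Chemokine genes were higher with MIF added in most members. Of 22 measured, 20 were higher with MIF added, 8 of them at an unadjusted p under 0.05 against 3.04% of all probe sets, and 11 were higher in all 3 pairs against 14.5%. The median difference was 0.37, and the members' mean was 0.50, 0.31 and 0.50 in the 3 pairs.

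Ccl2, the main attractant of monocytes, had 14.72, 14.78 and 15.26 in the sCD74 + MIF arrays, against 13.18, 13.63 and 13.77 in the sCD74 arrays. The groups were apart, and the pairs differed by 1.15 to 1.54. The mean difference was 1.39 ± 0.44 (SE, adjusted p = 0.912). Its neighbour in function Ccl7 had 12.71, 12.60 and 12.84 with sCD74 + MIF, against 11.33, 11.49 and 11.99 with sCD74. That is a difference of 1.11 ± 0.26 (SE, adjusted p = 0.912), again with no overlap. Ccl12, another monocyte attractant of the mouse, had 12.38, 13.67 and 12.56 with sCD74 + MIF, against 11.64, 12.97 and 11.15 with sCD74. Each pair was higher by at least 0.70, while replicate 2 ran high in both groups, so the groups overlapped.

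Cxcl13, which guides B cells through CXCR5, had 9.46, 8.94 and 9.63 in the sCD74 + MIF arrays, against 8.47, 8.23 and 8.36 in the sCD74 arrays. All co-treated arrays were higher, by 0.99 ± 0.18 (SE, adjusted p = 0.814). Ccl5, which attracts T cells and monocytes, had 8.16, 9.07 and 10.40 with sCD74 + MIF, against 7.20, 8.50 and 8.94 with sCD74, and was higher in all 3 pairs by 0.57 to 1.46. Cxcl10, an interferon-inducible ligand of CXCR3, differed by 0.81, 1.24 and -0.15 in the 3 pairs, so its mean difference of 0.63 ± 0.37 rests on pairs 1 and 2. The neutrophil attractants differed less, with 0.16 ± 0.19 for Cxcl1 and 0.42 ± 0.23 for Cxcl5.

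Among 14 measured cytokine and colony-stimulating factor genes, 13 were higher with MIF added, 4 of them at an unadjusted p under 0.05 against 3.04% of all probe sets. The median was 0.13, with a range of 0.097 without sCD74 replicate 3 to 0.23 without both arrays of replicate 2. Tnf had 7.74, 9.08 and 9.01 in the sCD74 + MIF arrays, against 7.05, 7.93 and 7.65 in the sCD74 arrays. The pairs differed by 0.69, 1.16 and 1.36, with a mean of 1.07 ± 0.27 (SE, adjusted p = 0.912), from an sCD74 level close to that of the negative controls. Il1a was higher by 0.73 ± 0.26 and in all 3 pairs. Il1b had 9.26, 9.21 and 9.44 with sCD74 + MIF, against 8.76, 8.74 and 8.81 with sCD74, 2 groups that did not overlap. Il6 differed by 0.12 ± 0.13, and Csf1, the growth factor of macrophages, by 0.27 ± 0.12.

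**Figure D2:**
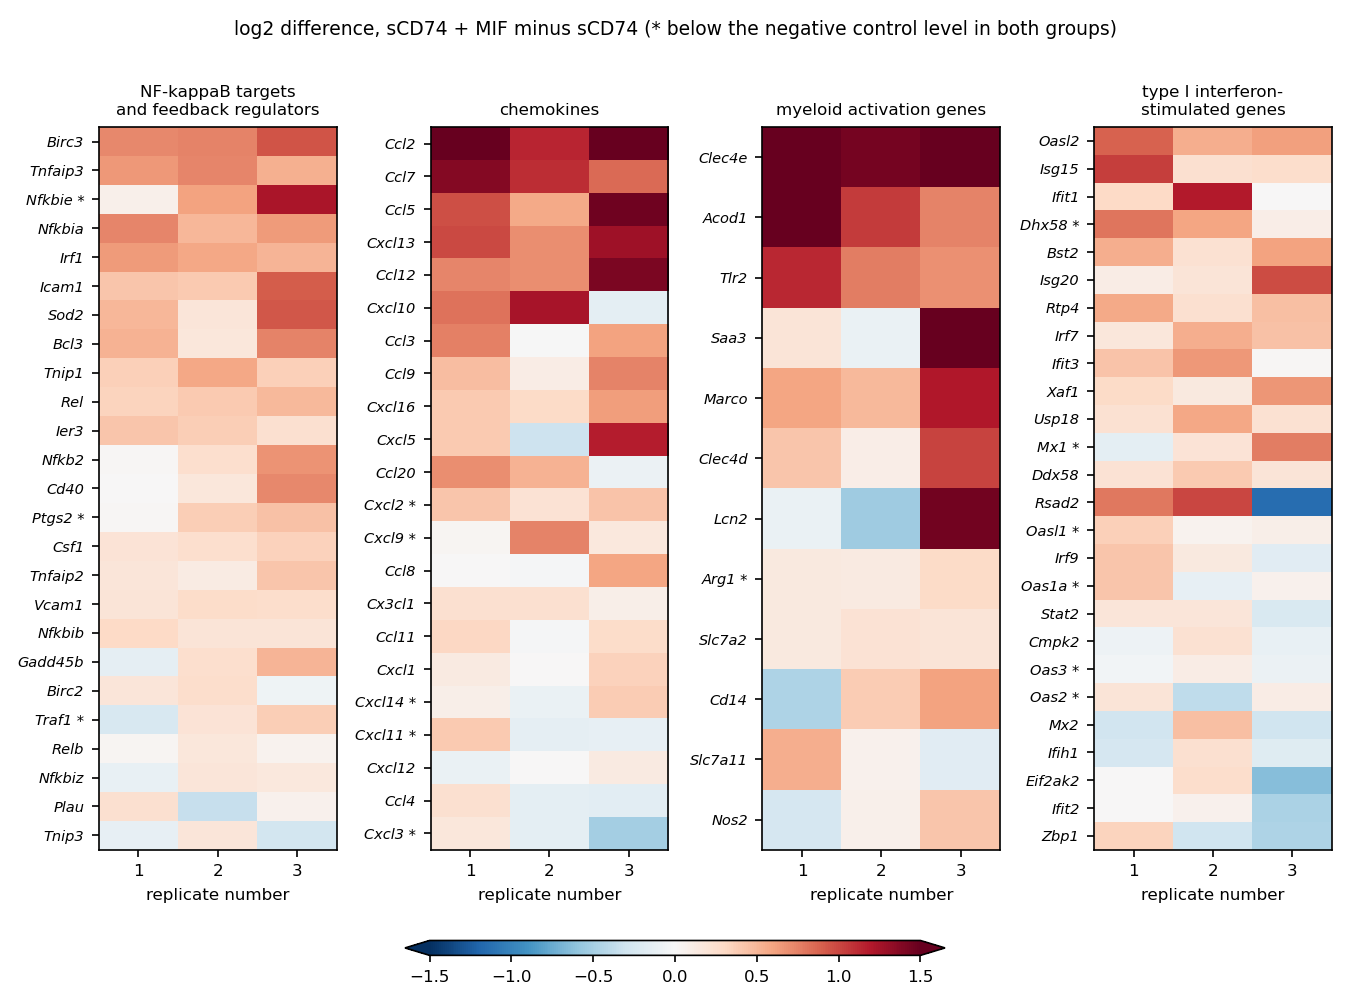
Difference in log2 level, sCD74 + MIF minus sCD74, of each measured member of the NF-kappaB, chemokine, myeloid and type I interferon lists (rows) in pairs 1, 2 and 3 (columns). Red is higher and blue lower with MIF added, the colour is full at 1.5, and an asterisk marks members below the negative control level in both groups. Red fills all 3 columns for 19 of 25 NF-kappaB members, 11 of 22 chemokines, 7 of 12 myeloid genes and 13 of 26 interferon genes.

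All 12 measured myeloid activation genes were higher with MIF added, against 51% of all probe sets, and 5 were so at an unadjusted p under 0.05, against 3.04%. The median was 0.39, with a range of 0.21 without sCD74 replicate 3 to 0.70 without both arrays of replicate 2. Its mean per pair was 0.47, 0.34 and 0.88. Tlr2, a receptor for bacterial lipoproteins, had 11.91, 13.62 and 13.31 in the sCD74 + MIF arrays, against 10.77, 12.86 and 12.63 in the sCD74 arrays. The replicates differed more from each other than the groups did, yet every pair was higher, by 0.68 to 1.14, and the difference was 0.86 ± 0.18 (SE, adjusted p = 0.882). Marco, a scavenger receptor, had 11.76, 11.14 and 11.51 with sCD74 + MIF, against 11.18, 10.66 and 10.31 with sCD74, a difference of 0.76 ± 0.22. Clec4d, which pairs with Clec4e, differed by 0.51 ± 0.19.

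Acod1, the gene of the enzyme that makes itaconate in activated macrophages, had 6.87, 7.95 and 7.98 in the sCD74 + MIF arrays. In the sCD74 arrays it had 5.24, 6.90 and 7.23, all below the negative control level of 7.53, so the size of its difference is not given weight. A pair of acute phase genes was carried by replicate 3: Saa3 differed by 0.19, -0.10 and 2.22 in the 3 pairs, and Lcn2 by -0.10, -0.53 and 1.45.

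Markers of macrophages were also higher, by smaller amounts. Of 15 measured, 12 were higher with MIF added, 2 at an unadjusted p under 0.05 against 3.04% of all probe sets, and 5 in all 3 pairs against 14.5%. Their median was 0.15, with a range of 0.0755 without both arrays of replicate 1 to 0.34 without sCD74 replicate 2. Aif1 had 10.44, 12.51 and 12.56 with sCD74 + MIF, against 10.12, 12.29 and 11.77 with sCD74, a difference of 0.45 ± 0.15. C1qb, a subunit of complement C1q, differed by 0.41 ± 0.19. The defining markers Csf1r, Adgre1 and Itgam differed by 0.12 ± 0.15, -0.02 ± 0.13 and 0.10 ± 0.21. The part of macrophage RNA in the values of Clec4e, Tlr2 and the other myeloid genes was not tested.

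**Figure D3:**
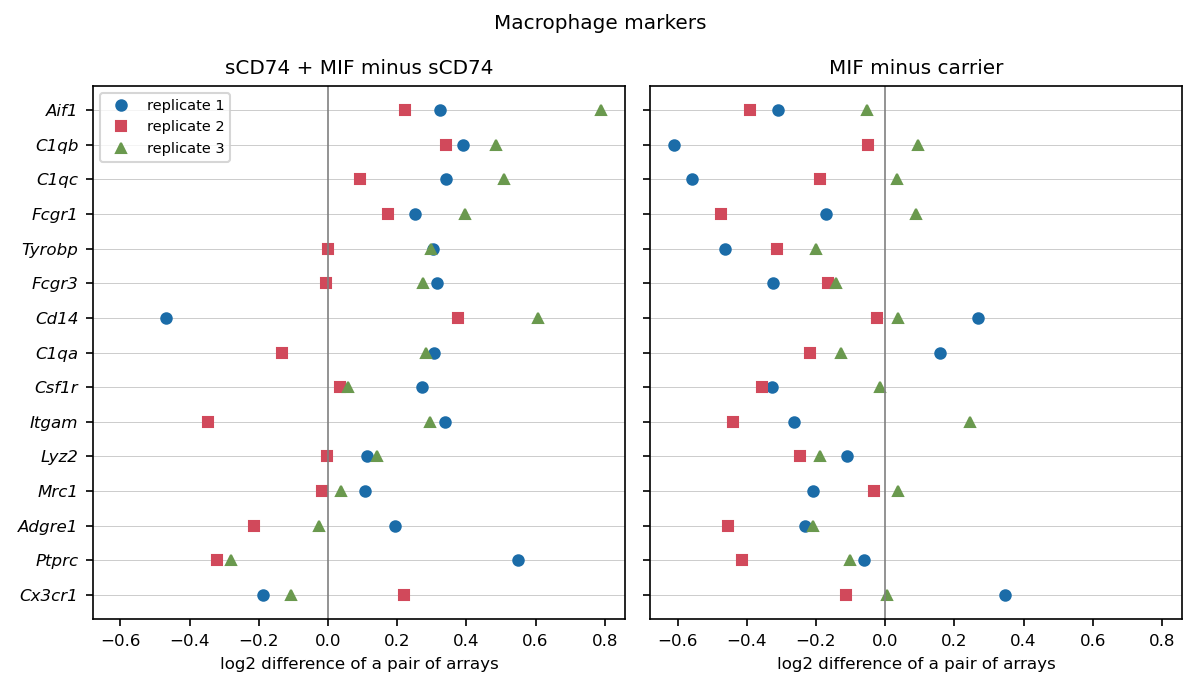
Difference in log2 level of 15 macrophage markers (rows) in each of the 3 pairs (points), for sCD74 + MIF minus sCD74 and for MIF minus carrier. With sCD74 the list's mean per pair was 0.21, 0.03 and 0.25, and without sCD74 it was -0.19, -0.26 and -0.03.

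Interferon genes were higher with MIF added in pairs 1 and 2 more than in pair 3. Of 26 measured type I interferon-stimulated genes, 19 were higher, against 51% of all probe sets. At an unadjusted p under 0.05, 4 were higher, against 3.04%, and 13 were higher in all 3 pairs, against 14.5%. Their mean was 0.29, 0.30 and 0.07 in the 3 pairs, and the groups were apart for 0 of the 26, against 3.92% of all probe sets. Their median was 0.24, with 0.06 without sCD74 + MIF replicate 2 and 0.11 without sCD74 replicate 1. Oasl2 had 10.39, 11.86 and 11.24 with sCD74 + MIF, against 9.50, 11.32 and 10.63 with sCD74, a difference of 0.68 ± 0.30. Bst2, the gene of tetherin, which holds virus particles on the cell, differed by 0.46 ± 0.15, and Isg15, a ubiquitin-like modifier, by 0.51 ± 0.23. Rsad2, the gene of viperin, went both ways, with 0.79, 1.01 and -1.14. Irf1, a transcription factor that both NF-kappaB and interferon gamma induce, had 10.94, 11.58 and 11.54 with sCD74 + MIF, against 10.30, 11.01 and 11.02 with sCD74. Its pairs were even, at 0.64, 0.58 and 0.51.

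The interferon-inducible GTPases, which act against microbes inside cells, were higher in 11 of 11 measured, 7 of them in all 3 pairs against 14.5% of all probe sets. Their median was 0.27, with a range of 0.12 without sCD74 + MIF replicate 2 to 0.52 without sCD74 replicate 2. Gbp2 had 10.00, 11.90 and 11.96 in the sCD74 + MIF arrays, against 9.42, 11.21 and 10.96 in the sCD74 arrays, a difference of 0.76 ± 0.26. Tgtp2 differed by 1.02, 1.37 and 0.62 in the 3 pairs. It has a near-identical paralogue, so its probes may also read the other copy. Genes of MHC class I antigen presentation were higher in 12 of 12, by smaller amounts. Their median was 0.18, with 0.11 without both arrays of replicate 3. They differed by 0.23 ± 0.11 for Tapbp, 0.32 ± 0.16 for the peptide transporter gene Tap1 and 0.05 for B2m, the class I light chain. Over all probe sets above the negative control level, 54.1% were higher.

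Sele codes for E-selectin, with which endothelial cells catch leukocytes. It had 9.31, 9.95 and 9.67 in the sCD74 + MIF arrays, against 8.36, 8.39 and 9.10 in the sCD74 arrays. The groups did not overlap and the difference was 1.02 ± 0.35 (SE, adjusted p = 0.912). Markers of endothelial cells as a list had a median of -0.02, with 5 of 11 higher.

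**Figure D4:**
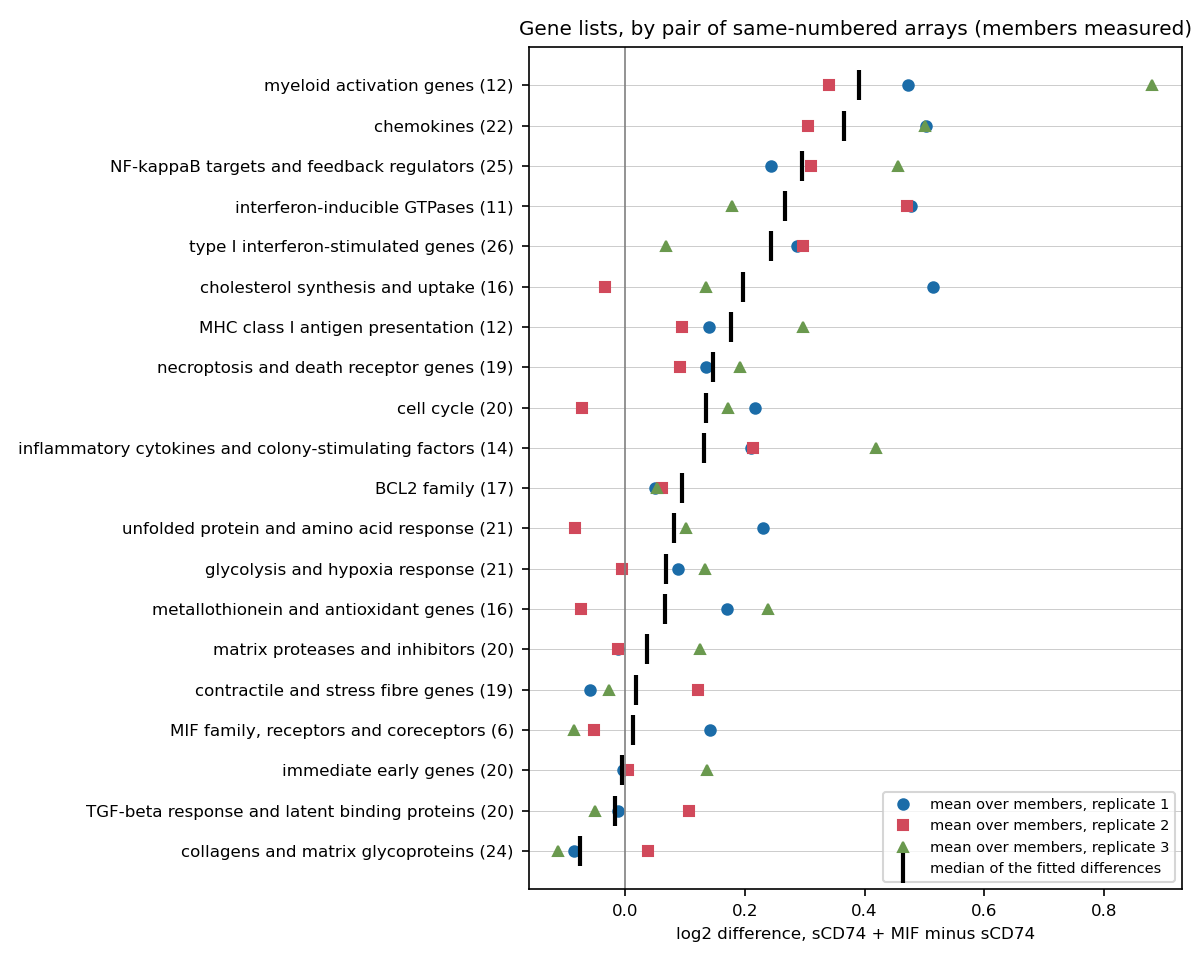
Mean difference in log2 level over the measured members of 20 pathway lists (rows), sCD74 + MIF minus sCD74, for each pair (points), with the median over members as a tick. The myeloid, chemokine and NF-kappaB lists lie to the right of 0 in all 3 pairs with medians of 0.39, 0.37 and 0.30, and the collagen list lies at -0.07.

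Genes of MIF itself and its receptors had a median of 0.01 over 6 measured members, with a range of -0.07 without sCD74 + MIF replicate 1 to 0.11 without sCD74 replicate 2. Mif had 11.23, 10.85 and 10.72 in the sCD74 + MIF arrays, against 10.86, 10.92 and 10.58 in the sCD74 arrays, a difference of 0.15 ± 0.19. Cd44 differed by 0.12 ± 0.14, Cxcr4 by -0.06 ± 0.19, Cxcr2 by -0.16 ± 0.25 and Ackr3 by 0.09 ± 0.21. Ddt, the gene of the MIF homologue D-dopachrome tautomerase, differed by -0.12 ± 0.17. Cd74 was not analysed here.

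In the necroptosis and death receptor list, which also holds Birc3, 15 of 19 measured genes were higher with MIF added, against 51% of all probe sets, and the median was 0.15, with 0.096 without both arrays of replicate 3. Mlkl, whose product breaches the cell membrane in necroptosis, had 12.06, 12.49 and 12.65 with sCD74 + MIF, against 11.93, 12.23 and 12.08 with sCD74. Its difference was 0.32 ± 0.13 (SE, adjusted p = 0.912), and the groups overlapped. Ripk3, the kinase that activates MLKL, had 9.07, 8.89 and 8.94 with sCD74 + MIF, against 8.90, 8.83 and 8.44 with sCD74, a difference of 0.24 ± 0.14 that came mostly from pair 3. Tnfrsf10b, a death receptor for TRAIL, differed by 0.35 ± 0.12. Casp8, the initiator caspase of that pathway, differed by 0.10 ± 0.11. Cflar, the gene of the caspase 8 regulator c-FLIP, was lower in all 3 pairs, by -0.28 ± 0.12, and was named after its value was seen. The BCL2 family split, with 10 of 17 higher and a median of 0.09, which was 0.024 without both arrays of replicate 3.

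Among genes of contraction and matrix, Acta2 and Col1a1 differed little, most matrix genes were slightly lower, and contractile genes went both ways. Acta2, the gene of smooth muscle actin, had 16.97, 16.53 and 16.42 in the sCD74 + MIF arrays, against 16.98, 16.47 and 16.32 in the sCD74 arrays, a difference of 0.05 ± 0.12. Col1a1, a chain of collagen I, differed by -0.04 ± 0.12. Of 24 collagens and matrix glycoproteins, 6 were higher and 18 lower, against 51% of all probe sets higher, and 7 were lower in all 3 pairs, against 12.6%. The median was -0.07, with a range of -0.014 without sCD74 + MIF replicate 3 to -0.13 without both arrays of replicate 2. Col3a1 had 17.51, 17.48 and 17.55 with sCD74 + MIF, against 17.66, 17.60 and 17.81 with sCD74. Its groups did not overlap, as for 2 of the 24 against 3.67% of all probe sets, with a difference of -0.18 ± 0.11 (SE, adjusted p = 0.929). Fibroblast markers, of which several stand in the matrix list too, had 2 of 9 higher and a median of -0.10.

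Of the contractile genes, 10 of 19 were higher. Cnn1, the gene of calponin, differed by 0.61 ± 0.21 and Myh11, smooth muscle myosin heavy chain, by 0.33 ± 0.12, both higher in all 3 pairs, whereas Vcl, the gene of the focal adhesion protein vinculin, differed by -0.29 ± 0.14. Myh11 averaged 7.49 in the sCD74 arrays, below the negative control level of 7.53, and 7.81 in the sCD74 + MIF arrays. TGF-beta response genes were split evenly, 10 of 20 higher, with 0.42 ± 0.17 for Ltbp2, a latent TGF-beta binding protein family member. Immediate early genes had 10 of 20 higher and a median of -0.01, and matrix proteases and their inhibitors had a median of 0.04. The medians of the contractile, TGF-beta, immediate early and protease lists each took both signs when arrays were left out.

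Genes of cholesterol synthesis were higher in 15 of 16 measured, chiefly in pair 1, where their mean was 0.51, against -0.03 in pair 2 and 0.14 in pair 3. Their median was 0.20, with a range of 0.062 without both arrays of replicate 1 to 0.33 without sCD74 replicate 2. Sqle, the gene of squalene epoxidase, differed by 0.98, 0.13 and 0.29, and Nsdhl, a later enzyme of the pathway, by 0.75, 0.03 and 0.34. Mt2, a metallothionein that binds zinc and copper, differed by 0.61, -0.03 and 1.09. Medians were 0.07 for glycolysis and hypoxia genes, 0.08 for the unfolded protein response, 0.13 for the cell cycle and 0.07 for metallothioneins and antioxidant genes. These medians turned on single arrays or pairs. They ranged from 0.0066 without sCD74 + MIF replicate 1 to 0.13 without sCD74 + MIF replicate 2 for glycolysis, and from 0.021 without sCD74 + MIF replicate 1 to 0.17 without both arrays of replicate 2 for the unfolded protein response. For the cell cycle they ranged from 0.049 without both arrays of replicate 1 to 0.21 without both of replicate 2, and for metallothioneins from 0.037 without sCD74 replicate 1 to 0.19 without sCD74 replicate 2.

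Of the 15 genes named by smallest p on the higher side, several stand in none of the pathway lists. Fbxo36, the gene of an F-box protein, had the smallest p of all and 8.66, 9.13 and 8.78 in the sCD74 + MIF arrays, against 7.94, 8.46 and 8.24 in the sCD74 arrays. Each co-treated array was above each sCD74 array, by 0.64 ± 0.11 on average (SE, adjusted p = 0.612). Tubb4a, a beta-tubulin gene, had 11.94, 11.86 and 11.89 with sCD74 + MIF, against 11.37, 11.04 and 11.53 with sCD74, a difference of 0.58 ± 0.12 with no overlap. Cbr2, a carbonyl reductase gene, differed by 1.12, 0.40 and 0.84. Icosl, which costimulates T cells, differed by 0.68 ± 0.17, Cacnb1, a calcium channel subunit, by 0.64 ± 0.14, and Bcar1, the adhesion scaffold p130Cas, by 0.52 ± 0.13. Pcx, the gene of pyruvate carboxylase, and Pstpip2 averaged below the negative control level in the sCD74 arrays.

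On the lower side, Dtx3, a gene of the Deltex family of ubiquitin ligases, had the smallest p among the genes above the negative control level that the naming rule takes. It had 8.75, 9.01 and 8.94 with sCD74 + MIF, against 9.18, 9.43 and 9.61 with sCD74, groups that did not overlap, and the difference was -0.51 ± 0.12 (SE, adjusted p = 0.912). Il7r, the interleukin 7 receptor, had 8.41, 8.44 and 8.26 with sCD74 + MIF, against 8.92, 8.90 and 8.80 with sCD74. Its pairs were nearly equal, at -0.51, -0.46 and -0.55. The sCD74 mean of Il7r, 8.87, was the highest of all groups, against 8.37 with sCD74 + MIF, 8.47 with MIF and 8.53 with carrier. Fxr1, the gene of an RNA-binding protein related to FMRP, differed by -0.47 ± 0.13, Fnip1, a folliculin partner, by -0.40 ± 0.12, and Ppm1f, a protein phosphatase, by -0.40 ± 0.12. The other 10 genes on that side were Pbxip1, Ccdc191, Mtm1, Kri1, Tbrg3, Eid3, Armcx4, Wfdc18, Mpp5 and Zfp369. They differed by between -0.84 for Tbrg3 and -0.34 for Wfdc18, and each was lower in all 3 pairs, as the rule for naming them requires.

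The same addition of MIF was measured without sCD74 in the 6 other arrays, MIF minus carrier, which share no array with the comparison above. There too 0 probe sets passed the adjusted p, 742 (3.34%) were higher and 653 (2.94%) lower at an unadjusted p under 0.05. Tested directly, the 2 MIF effects differed for 0 of 22206 probe sets, with a smallest adjusted p of 1, and 831 (3.74%) had an unadjusted p under 0.05. Across the 12769 probe sets above the negative control level, the 2 effects correlated with r = 0.311, a description over probe sets, which are not independent replicates.

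The NF-kappaB list had a median of 0.30 with sCD74 and 0.30 without it, with 23 of 25 members higher in each, against 51% and 52.3% of all probe sets. Birc3 differed by 0.80 ± 0.14 with sCD74 and by 0.81 ± 0.14 without it, and Nfkbia by 0.62 ± 0.14 and 0.60 ± 0.14. The chemokine list had medians of 0.37 and 0.31, the interferon-inducible GTPases 0.27 and 0.58, and MHC class I genes 0.18 and 0.17. The chemokines' mean per pair was 0.50, 0.31 and 0.50 with sCD74, and 0.00, 0.32 and 0.94 without it. Pair 3 was also the largest without sCD74 for the other 3 lists. The NF-kappaB mean was 0.13, 0.22 and 0.67 there, and the MHC class I mean 0.04, 0.03 and 0.37. The GTPases had 0.06, 0.38 and 1.15 without sCD74, against 0.48, 0.47 and 0.18 with it. The pairs of Ccl2 ran from 1.15 to 1.54 with sCD74, and were -0.24, 1.07 and 2.95 without it. Its 2 effects, 1.39 ± 0.44 and 1.26 ± 0.44, were not told apart by the test of their difference (adjusted p = 1).

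**Figure D5:**
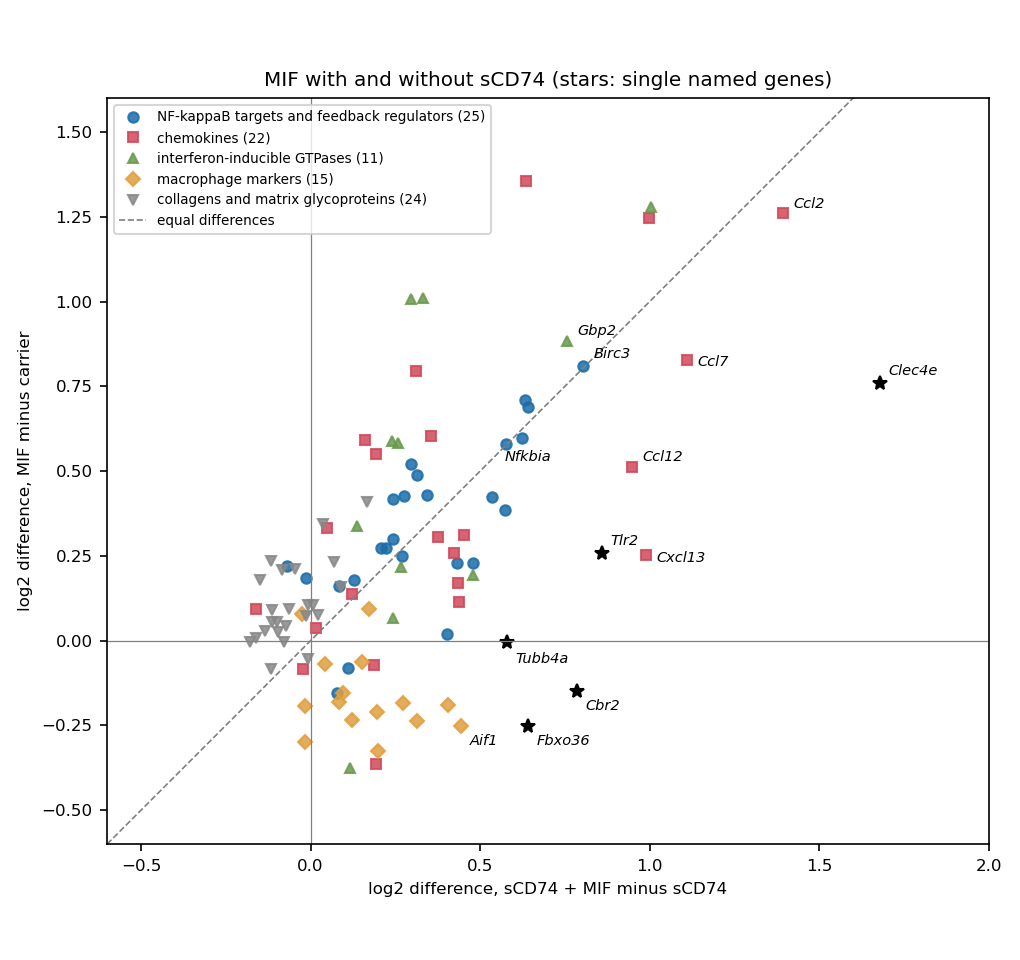
Each point is a member of the NF-kappaB, chemokine, GTPase, macrophage marker or collagen list or a starred gene, with the log2 difference sCD74 + MIF minus sCD74 on the horizontal axis and MIF minus carrier on the vertical axis, and a dashed line where the 2 are equal. Birc3 at 0.80 and 0.81 lies by that line, while the starred genes Clec4e, Tlr2, Fbxo36, Cbr2 and Tubb4a lie to the right of it. The starred genes were picked for a small p in the contrast of the horizontal axis, which favours that side.

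Several genes had 2 MIF effects that lay further apart, though none passed the adjusted p for the difference. Those given next, from Fbxo36 to Cbr2, were named for their small p with sCD74 present. That contrast is a part of the tested difference, so a larger effect with sCD74 is favoured by how they were picked. Their unadjusted p therefore cannot be read as a test of a dependence on sCD74. Fbxo36 differed by 0.64 with sCD74 and by -0.25 ± 0.11 without it, a difference of 0.90 between the 2 effects (unadjusted p = 6.06e-05, adjusted p = 1 in limma). Clec4e differed by 1.68 and by 0.76 ± 0.28, with pairs of -0.05, 0.63 and 1.70 without sCD74 (unadjusted p = 0.037, adjusted p = 1 in limma). Tlr2 differed by 0.86 and by 0.26 ± 0.18 (unadjusted p = 0.0355, adjusted p = 1). Cxcl13 differed by 0.99 and by 0.25 ± 0.18 (unadjusted p = 0.0139, adjusted p = 1). Without sCD74 Tubb4a differed by 0.00 ± 0.12 (unadjusted p = 0.00453, adjusted p = 1 for the difference of effects). Its mean was 11.90 with sCD74 + MIF, 11.32 with sCD74, 11.75 with MIF and 11.75 with carrier. Cbr2 differed by -0.15 ± 0.19 without sCD74 (unadjusted p = 0.00404, adjusted p = 1). Its means in the same order were 10.75, 9.96, 10.30 and 10.45. For Tubb4a and Cbr2 the sCD74 mean was thus the lowest of the 4 groups. Macrophage markers had medians of 0.15 with sCD74 and -0.19 without it, and 12 and 2 of 15 were higher. The part of macrophage RNA in the differences of Clec4e, Tlr2 and Cbr2 between the 2 contrasts was not tested. Collagen and matrix genes had medians of -0.07 with sCD74 and 0.08 without it, and TGF-beta response genes -0.02 and 0.17.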

How the data were processed

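Gene expression was measured on 12 Affymetrix whole-transcript arrays, 3 per group. The deposited values are log2 levels per probe set, 1 column per sample. Per the submitters' processing notes the authors used RMA, the Transcriptome Analysis Console and the Affymetrix Expression Console, with no versions given. RMA in its usual form sets all arrays to a common distribution, which can hide a shift of all genes at once. Scanner files were not used here.

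Values were used as deposited. The 6640 control probe sets were left out. Of the other 22206, the platform's probe table gave 19572 a symbol, all matched to RefSeq genes of GRCm38.p6 by Entrez ID, used for names and promoters, and 2634 were tested without a name. Probe sets were fitted in R 4.3.3 by limma 3.58.1, with 4 group means and the replicate number as a block over all 12 arrays, and Benjamini-Hochberg adjustment over 22206 probe sets within a contrast. Errors are standard errors of that fit. The block follows the shared code in the titles: deviations of same-numbered arrays of the 2 groups from their group means correlated with r of 0.634, 0.498 and 0.17, against -0.53 to 0.0943 for different numbers. Deviations within a group add up to 0, so the values for different numbers are not independent of those for the same number.

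The members, the 20 pathway lists, the 9 marker lists and the motifs were chosen with earlier results of these data known. Named genes are the 15 with the smallest p in each direction that moved 1 way in all 3 pairs and lay above the negative control level, in each list the 3 members of smallest p, and fixed genes such as Mif, Acta2 and Mlkl. Other list members and Sele were named after their values were seen. The fit was tested on simulated data, and 16 alternatives were run.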

Additional observations from a re-analysis of the deposited data

Results flagged for a closer look

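For 9 of 108 named genes every pair moved 1 way with sCD74 present and the opposite way without it, which 518 of 22206 probe sets (2.33%) also did. Most named genes were picked for a small p with sCD74 present, 30 of them also for pairs that moved 1 way there. That choice favours such a pattern, so the 2 shares cannot be compared. The difference between the 2 MIF effects was tested in limma and had an adjusted p of 1 for each of the 9. MIF added to sCD74 and MIF against carrier differed by 0.64 and -0.25 for Fbxo36, -0.45 and 0.06 for Zfp369, 0.28 and -0.16 for Bcl2a1d, 0.23 and -0.21 for Bcl2a1a, and 0.32 and -0.09 for Ccnb2. The values were 0.45 and -0.25 for Aif1, 0.30 and -0.36 for Vwf, 0.15 and -0.17 for Thy1, and 0.10 and -0.12 for Casp8. Bcl2a1a and Bcl2a1d are near-identical copies of a gene family, so their probes may read the same transcripts.

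The mean over the macrophage marker list also went opposite ways in every pair, by 0.163 with sCD74 and by -0.161 without it. That difference was not tested. Vwf is a marker of endothelial cells and Aif1 of macrophages.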

How the results depend on the processing

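With the replicate block left out, 0 probe sets were called and the smallest adjusted p was 0.9998, while 312 probe sets were higher and 288 lower at an unadjusted p under 0.05, against 675 and 523 with the block. With only the 6 arrays of the comparison, still with the block, 2 probe sets were called higher (Clec4e and Ccl2) and the smallest adjusted p was 0.02325. Only 2 residual degrees of freedom remain in that fit. An intensity trend with robust variance gave 0 calls and a smallest adjusted p of 0.06528. Restricting the fit to probe sets above the negative control level gave 0 calls, a smallest adjusted p of 0.237 and 286 lower at an unadjusted p under 0.05. It moved the medians of cytokine genes to 0.2703, of epicardial markers to -0.0757, of lymphocyte markers to 0.4274 and of Schwann cell markers to -0.3372, since fewer members were left.

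When arrays were left out, the number of calls stayed at 0 in each of 9 settings. Where both arrays of a replicate were left out, its MIF and carrier arrays were left out of the fit as well. The smallest adjusted p ranged from 0.2811 to 0.9997, the higher count at an unadjusted p under 0.05 from 421 to 854 and the lower one from 360 to 631. The 2-fold counts ranged from 7 to 16 higher and from 0 to 5 lower. Medians ranged from 0.2088 to 0.6952 for myeloid genes, 0.06332 to 0.3271 for type I interferon genes, 0.1184 to 0.517 for GTPases, 0.0237 to 0.09414 for the BCL2 family, -0.03445 to 0.07618 for proteases and -0.05398 to 0.08809 for contractile genes. Among marker lists they ranged from 0.0755 to 0.3421 for macrophages, -0.07486 to 0.1236 for endothelial cells, -0.1851 to -0.1029 for epicardial cells, -0.1513 to 0.008245 for lymphocytes and -0.1232 to 0.08176 for Schwann cells. The NF-kappaB median kept between 0.2332 and 0.4067 and the chemokine median between 0.2422 and 0.4151. The cause of these moves was not tested. Of 108 named genes, 10 had the other sign in at least 1 of 16 alternatives, and 0 of the 30 with the smallest p did. The difference between the 2 MIF effects had 0 calls in every alternative it was run in, which leaves out the fit of 6 arrays.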
